A study of Sus scrofa with 27 samples.

Results

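The genes described here encode the protein components of the 2 ribosomes of a pig cell. They were chosen by gene symbol alone: RPL, RPS, RPLP0 to RPLP2 and RPSA names gave the cytosolic class, and MRPL and MRPS names gave the mitochondrial class. After 1 matching gene, RPL10L, was left out for having under 10 counts, 122 of the 31908 genes in the count table were members, 55 of them cytosolic and 67 mitochondrial. The cytosolic class held 29 genes of the large subunit, 23 of the small subunit and 3 of the acidic stalk, and the mitochondrial class held 40 large and 27 small subunit genes. A further 23 genes described as cytosolic and 9 described as mitochondrial ribosomal proteins carried no gene name in the count table, although a reference gives most of them one, and were not members.

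Lung biopsies came from Large-White pigs of a non-heart-beating donor model whose lungs, after cold ischemia, were perfused ex vivo (ex vivo lung perfusion, EVLP) with Steen solution to which methylprednisolone, cefuroxime and heparin were added in both groups. In the gold standard group (GS, 5 pigs) part of the perfusate was replaced at intervals, and in the pediatric dialysis group (PD, 4 pigs) the perfusate was dialysed continuously across a pediatric membrane. Each lung was sampled after cold ischemia, before either procedure had begun (0h), and at 6h and 12h of perfusion, which gave 27 poly(A)-selected RNA-seq libraries, and the pig was the replicate. Whole-lung RNA was measured, so fewer cells of a type and less RNA per cell cannot be told apart.

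The cytosolic ribosome translates nuclear-encoded messengers, and most of its protein genes carry a terminal oligopyrimidine (TOP) tract, a C followed by a run of pyrimidines at the very start of the messenger, through which their translation is tied to growth and nutrient signalling. The mitochondrial ribosome translates the few messengers made inside the mitochondrion, and all of its proteins are encoded in the nucleus, made in the cytosol and imported. Its protein components come from other genes than those of the cytosolic ribosome, and several have no bacterial counterpart.

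The sequences below show the start of the messenger, because the TOP tract is a feature that the choice by name did not use. Each is 30 bases of the Sscrofa11.1 genome on the coding strand, with the first transcribed base of the RefSeq transcript at position 11 and, in capitals, the pyrimidine run of a TOP-like start. A TOP-like start was counted where a C followed by 4 or more C or T began within the first 6 transcribed bases. The first 5 are cytosolic genes, MRPL17 is a mitochondrial gene with such a run, and RPS27L, RPL7L1 and MRPL34 have none in this window.

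RPL38 (chr12:6889875-6889904, minus strand): gcggaagtccCTTCCTTTTCCgttctgctt

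RPLP2 (chr2:507881-507910, plus strand): gcgccggcgtCTTCCTTTCTgtccctgacg

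RPL7 (chr4:62602420-62602449, plus strand): gcgctaacttCCTCTTTCCCggctggaacc

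RPS20 (chr4:75762199-75762228, plus strand): tcacgccttcCTCTTTgaagaagacgcagc

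RPLP0 (chr14:40223924-40223953, minus strand): tacagccctcCTCTCgccaggcgtcctcgt

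MRPL17 (chr9:3075976-3076005, plus strand): tccggttccggCCTCCCgggggcggggaga

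RPS27L (chr1:108881320-108881349, plus strand): cctacccgccatacaccagttgagcctggc

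RPL7L1 (chr7:37940539-37940568, plus strand): gtcggtgggaagcgtttcctcgtttgtgac

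MRPL34 (chr2:60378948-60378977, minus strand): ctaaggtgtgggcgcgcagacgtagaacta

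A TOP-like start stood at 18 of 55 cytosolic genes (32.7%), at 12 of the 64 mitochondrial genes with a window (18.8%) and at 11.2% of 19551 genes. The share depends on how exactly RefSeq places the first base. In the promoter from 250 bases before to 50 bases after that base, read on both strands, CCGGAAG, the core of ETS factor sites, was found in 45.5% of the cytosolic, 31.3% of the mitochondrial and 10.7% of all promoters. GCATGCGC, from the NRF1 site, was found in 5.45% of the cytosolic, 12.5% of the mitochondrial and 2.89% of all promoters, and AAGATGGC, from the YY1 site, in 5.45%, 10.9% and 2.74%. The E-box CACGTG was found in 7.27%, 12.5% and 7.46%, and TATAAA in 16.4%, 17.2% and 10.99%, in the same order. The members also shared short messengers: the median RefSeq transcript had 691 bases in the cytosolic class, 1330 in the mitochondrial class and 2830 over protein-coding genes, of which 80.0% could be matched.

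Library totals ran from 14650700 to 67522703 counts. The deepest PD library held 21820935 counts and the shallowest GS library 26335584, so group and library depth cannot be told apart in any comparison of PD with GS. Among the PD libraries that of pig 2 at 12h stood apart. It had the fewest counts and 1.65% of them from mitochondrially encoded genes, against 4.97% to 11.6% in the other PD libraries. In the GS group pig 17 was also low, with 2.41%, 3.14% and 2.41% at 0h, 6h and 12h. The other GS libraries had 5.74% to 9.49%. The main PD results that rest on the 12h library of PD pig 2 are also given without it.

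In every library the cytosolic class took far more of the counts than the mitochondrial class. In the GS pigs its share was 2.29% ± 0.180 (SD, n = 5) at 0h, 2.31% ± 0.107 at 6h and 2.54% ± 0.198 at 12h. In the PD pigs the share was 9.11% ± 2.67 (SD, n = 4), 6.72% ± 1.53 and 9.54% ± 5.23. Without pig 2 the 12h share was 7.01% ± 1.67 (SD, n = 3). The groups did not overlap at any time, since the highest GS library had 2.73% and the lowest PD library 5.25%.

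By pig, the cytosolic share at 0h, 6h and 12h was 2.404%, 2.22% and 2.21% in GS pig 9, 2.31%, 2.45% and 2.64% in pig 17, and 2.01%, 2.39% and 2.57% in pig 44. GS pig 55 gave 2.48%, 2.28% and 2.53% and pig 77 gave 2.23%, 2.204% and 2.73%. All of these pigs but pig 9 had their highest share at 12h. In the PD pigs the shares were 6.64%, 8.97% and 17.1% in pig 2, 8.15%, 5.78% and 5.25% in pig 3, 12.9%, 6.31% and 7.23% in pig 4, and 8.78%, 5.80% and 8.56% in pig 5. Pig 2 climbed at each step, while the other 3 PD pigs were lower at 6h than at 0h.

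The mitochondrial class took 0.133% ± 0.0041 of the counts in the GS pigs at 0h, 0.124% ± 0.0148 at 6h and 0.123% ± 0.0132 at 12h (SD, n = 5), and 0.236% ± 0.0399, 0.166% ± 0.0110 and 0.229% ± 0.0468 in the PD pigs (SD, n = 4; 0.207% ± 0.0168 at 12h without pig 2). The GS libraries ranged from 0.110% to 0.145% and the PD libraries from 0.153% to 0.296%, so these ranges did not overlap either. The mean ratio of cytosolic to mitochondrial counts was 17.2, 18.8 and 20.9 in the GS pigs at the 3 times and 38.4, 40.7 and 39.7 in the PD pigs, the last being 33.6 without pig 2. Scaled to RefSeq transcript length, the median cytosolic member stood at 420, 479 and 555 CPM (TMM-normalised read counts scaled to library size) per kilobase in the GS pigs and the median mitochondrial member at 11.4, 10.2 and 11.3. In the PD pigs the same level per kilobase was 2000, 1633 and 2405 for the cytosolic class and 25.1, 20.1 and 25.4 for the mitochondrial class.

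**Figure D1:**
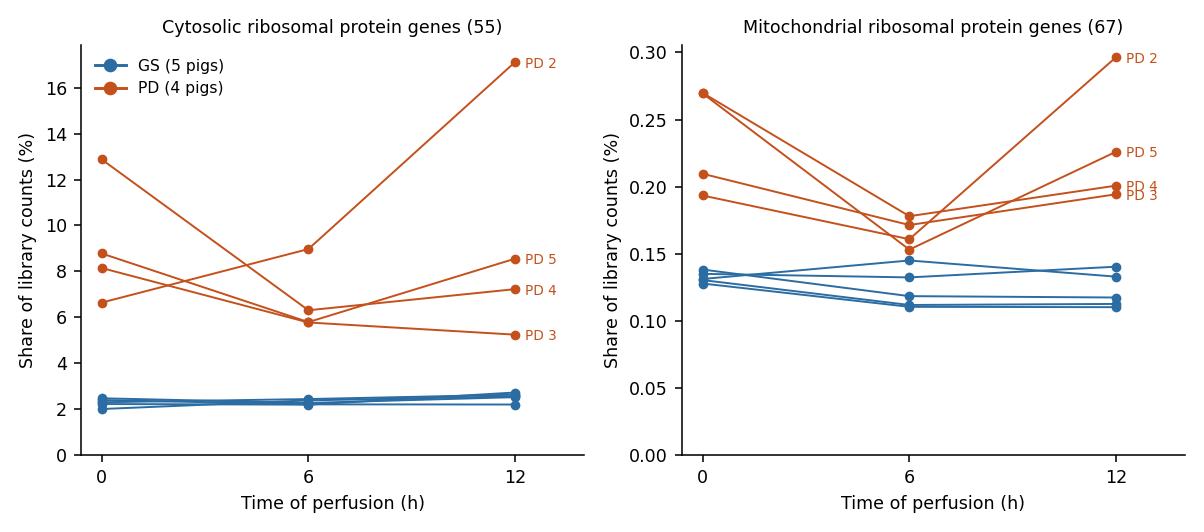
Share of all counts in each library (percent, vertical axes from 0) taken by the cytosolic and the mitochondrial ribosomal protein genes against the time of perfusion (hours), with 1 line per pig. Every PD line lies above every GS line in both panels, and the cytosolic share of PD pig 2 climbs to 17.1% at 12h.

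Over 12h of GS perfusion 31 cytosolic genes rose and none fell, while mitochondrial genes passed in both directions at shares near or below those of all genes. Between 12h and 0h, 31 of the 55 cytosolic genes rose and 0 fell (edgeR quasi-likelihood test with the pig as a block, Benjamini-Hochberg adjusted p under 0.05 over 18594 genes), where 17.6% of all genes tested rose and 20.8% fell. The fitted change was positive for all 55, with a median log2 fold change of 0.35, against -0.08 over all genes. In the mitochondrial class 11 of 67 genes rose and 10 fell, with a median of 0.04 and 35 positive fits. The number that passed depended on the model: without the pig as a block 8 cytosolic and 6 mitochondrial genes passed, with 16.6% of all genes passing in either direction, and in 1 fit of all 27 libraries 2 and 3 passed, with 16.1% of all genes. DESeq2 passed 48 cytosolic genes and 43.2% of all genes. Scaling by library totals alone moved the median of all genes to -0.30 and that of the cytosolic class to 0.13, with 52 of 55 still positive and 5 passing, where 45.2% of all genes passed in either direction. Relative to all genes the cytosolic median was 0.42 higher before and 0.43 higher after that change of scaling. This distance could hardly move, because either scaling multiplies all genes of a library by the same factor. In the mitochondrial class library totals alone made the median negative, with more passing genes that fell than rose.

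The cytosolic genes that passed came from all parts of the ribosome: 15 of 29 large subunit genes, 13 of 23 small subunit genes and all 3 stalk genes passed. Per pig, the median cytosolic change between 12h and 0h on the log2 scale was -0.02 in pig 9, 0.49 in pig 17, 0.65 in pig 44, 0.38 in pig 55 and 0.52 in pig 77. Pig 9 thus gave no shift of the class, and without it 51 cytosolic genes passed in place of 31, with 40.3% of all genes passing in either direction. Without pig 17, 44, 55 or 77 the number was 16, 13, 20 or 15, all rising, and the share of all genes passing was 27.6%, 25.4%, 25.8% or 32.8%. The median mitochondrial change was 0.17, 0.26, -0.03, 0.01 and -0.03 in the same order of pigs. Of the cytosolic genes 25 were higher at 12h in all 5 pigs and 28 in 4 of 5; of the mitochondrial genes 16 were higher in all 5 and 11 in none.

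RPLP0, the base of the stalk that recruits elongation factors (ENSSSCG00000036014, chr14:40219124-40223967), had normalised levels of 614, 521 and 654 CPM at 0h, 6h and 12h in GS pig 9, 663, 719 and 947 CPM in pig 17 and 534, 854 and 927 CPM in pig 44. GS pig 55 had 583, 640 and 867 CPM and pig 77 had 538, 701 and 818 CPM. Every pig was higher at 12h than at 0h, pig 9 least, and the RPLP0 log2 fold change was 0.47 (SE 0.12, adjusted p = 0.0091). Its partners RPLP1 and RPLP2, the acidic proteins of the stalk, rose by log2 fold changes of 0.32 (adjusted p = 0.039) and 0.38 (adjusted p = 0.018).

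RPSA, a small subunit protein also known as the laminin receptor (ENSSSCG00000037236, chr13:24072527-24083686), stood at 298, 333, 250, 248 and 252 CPM at 0h in GS pigs 9, 17, 44, 55 and 77 and at 316, 453, 427, 389 and 392 CPM at 12h. The 5 pigs were all higher at 12h, and the 0h and 12h ranges overlapped only through pigs 9 and 17. The RPSA log2 fold change was 0.48 (SE 0.12, adjusted p = 0.0067). RPS18, which lies in the head of the small subunit (ENSSSCG00000001502, chr7:29638833-29642918), rose from 181, 281, 162, 204 and 190 CPM to 218, 489, 304, 286 and 307 CPM in the same pigs, a log2 fold change of 0.60 (SE 0.11, adjusted p = 0.0015). RPL38, among the shortest members (ENSSSCG00000017239, chr12:6884902-6905508), did not pass, with a log2 fold change of 0.26 (adjusted p = 0.12).

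Largest among the cytosolic genes that passed were a pair of paralogs, genes that closely resemble a core ribosomal protein gene. RPS27L, a p53-responsive relative of RPS27 (ENSSSCG00000023158, chr1:108881552-108890283), had 38.3, 34.5, 22.3, 26.7 and 25.2 CPM at 0h in GS pigs 9, 17, 44, 55 and 77 and 71.9, 63.7, 40.4, 36.1 and 35.6 CPM at 6h. At 12h RPS27L stood at 54.3, 69.3, 48.5, 44.2 and 37.4 CPM. It was above its own 0h level in every pig at both times, and its log2 fold change was 0.75 after 12h of perfusion (SE 0.13, adjusted p = 0.00094).

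RPL7L1, a relative of RPL7 that takes part in making ribosomes (ENSSSCG00000026472, chr7:37933535-37953078), had 59.9, 31.9, 40.9, 47.7 and 45.3 CPM at 0h in the same order of GS pigs and 88.5, 62.1, 73.8, 74.8 and 65.9 CPM at 12h. The 0h and 12h ranges did not overlap, and the RPL7L1 log2 fold change was 0.68 (SE 0.10, adjusted p = 0.00050). RPL3L, the form of RPL3 used in striated muscle, had a log2 fold change of 0.84 that did not pass (adjusted p = 0.051), and RPL26L1 had 0.02 (adjusted p = 0.93). Of the 9 paralogs tested, a list that includes genes outside the name rule, 5 rose and 0 fell, with a median of 0.65. Reads from near-identical copies may be divided between such genes and the many processed copies of ribosomal protein genes, and how shared reads were counted is not given in the sources used here.

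At 6h the same class had moved less. Among the cytosolic genes RPS27L, by a log2 fold change of 0.70, RPL7L1 and RPS18 rose and 0 fell, against 13.6% of all genes rising and 14.9% falling, and 54 of 55 fits were positive with a median of 0.17. RPL7L1 gave a log2 fold change of 0.56 and RPS18 one of 0.34. These fits use TMM scaling. As a plain share of counts the cytosolic class took 2.29% at 0h and 2.31% at 6h. That share was lower at 6h in GS pigs 9, 55 and 77 and higher in pigs 17 and 44. In the mitochondrial class 9 rose and 7 fell, with a median of 0.02. Fewer mitochondrial genes, and a smaller share of all genes, passed with any single pig left out or without the block. Library totals alone made the mitochondrial median negative. Between 12h and 6h no gene passed (0.0% of 18594; 884 at an unadjusted p under 0.05), and 55 of 55 cytosolic fits were positive with a median of 0.17. Of these, 7 cytosolic and 0 mitochondrial genes had an unadjusted p under 0.05. DESeq2 passed 0 members here too, against 0.011% of all genes.

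**Figure D2:**
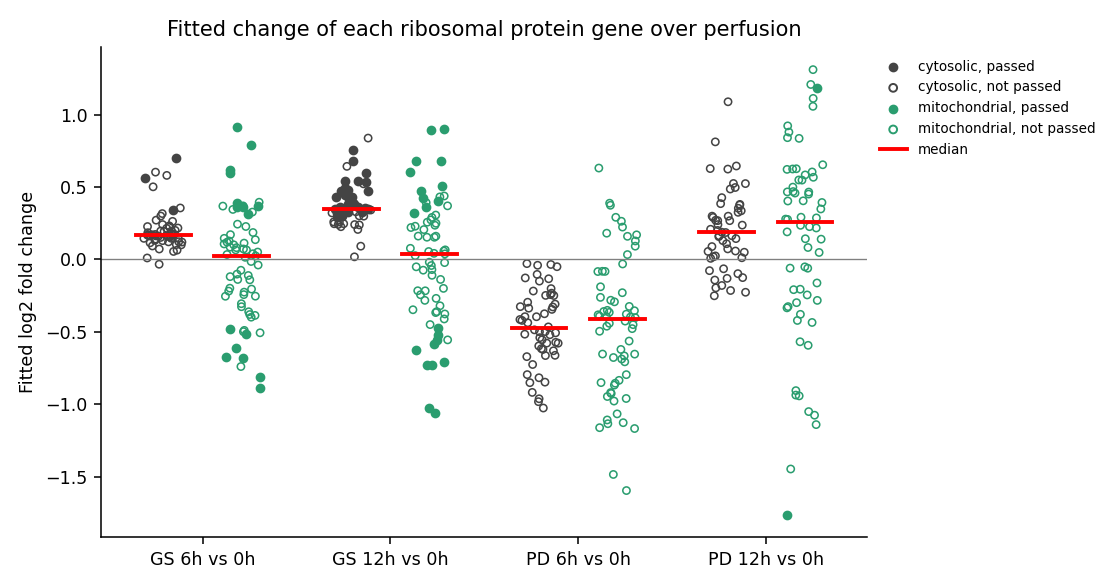
Fitted log2 fold change (vertical axis) of each cytosolic and mitochondrial ribosomal protein gene at 6h and 12h against 0h in the GS and PD pigs, with filled points for genes that passed, open points for the others and a red bar at the class median. The cytosolic points at 12h in GS all lie above 0 around 0.35, while the mitochondrial points spread on both sides of 0.

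MRPL17, MRPS27, MRPL15, MRPL40 and MRPL20 of the mitochondrial class had passed in the GS pigs by 6h and passed again at 12h. MRPL17, a protein at the exit of the large subunit's tunnel (ENSSSCG00000024693, chr9:3075995-3083580), had 36.8, 30.4, 35.03, 38.01 and 41.1 CPM at 0h in GS pigs 9, 17, 44, 55 and 77, 66.0, 44.6, 65.2, 67.8 and 76.1 CPM at 6h, and 51.4, 65.5, 75.8, 89.4 and 65.3 CPM at 12h. No 6h or 12h library was as low as any 0h library, and the 12h log2 fold change of MRPL17 was 0.90 (SE 0.14, adjusted p = 0.00047), after 0.79 at the earlier time.

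MRPS27, a small subunit protein with pentatricopeptide repeats (ENSSSCG00000023818, chr16:48482052-48642576), had 13.4, 20.4, 16.2, 15.1 and 15.7 CPM at 0h in these pigs and 25.6, 61.0, 28.1, 33.8 and 15.8 CPM at 12h. Pig 77 was back at its 0h level at 12h after 30.1 CPM at 6h. The 12h log2 fold change of MRPS27 was 0.89 (SE 0.21, adjusted p = 0.0058), close to the 0.91 of the earlier time.

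MRPL15, of the large subunit (ENSSSCG00000030578, chr4:77068334-77083723), rose from 21.2, 18.9, 19.4, 19.8 and 18.9 CPM at 0h to 26.8, 38.0, 38.4, 34.01 and 25.8 CPM at 12h in GS pigs 9, 17, 44, 55 and 77, without overlap. Its log2 fold change was 0.68 (SE 0.13, adjusted p = 0.0016). MRPL40, also of the large subunit (ENSSSCG00000034014, chr14:51102613-51105767), rose from 16.5, 16.2, 15.7, 17.7 and 17.7 CPM to 23.9, 27.96, 30.2, 34.6 and 21.5 CPM, again without overlap, by a log2 fold change of 0.68 (adjusted p = 0.0024). MRPL20 rose by 0.61 (adjusted p = 0.0015) and the paralog MRPS18B by 0.41, whereas MRPS18A at 0.31 (adjusted p = 0.081) and MRPS18C at 0.08 (adjusted p = 0.77) did not pass.

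Several of the mitochondrial genes that fell differed between pigs. MRPL47, near the tunnel exit (ENSSSCG00000011763, chr13:117625330-117656354), had 6.57, 8.26, 5.44, 6.25 and 6.72 CPM at 0h in GS pigs 9, 17, 44, 55 and 77 and 6.48, 6.87, 1.57, 2.62 and 2.19 CPM at 12h. Pigs 44, 55 and 77 fell and pigs 9 and 17 hardly moved; the log2 fold change was -1.06 (SE 0.26, adjusted p = 0.0074) and the spread of the 5 pigs' MRPL47 changes was 0.80 (SD). The libraries of pigs 9 and 17 were also the shallower ones of the group. MRPS16 had a log2 fold change of -1.02 (adjusted p = 0.015) at a mean level of under 1 CPM.

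MRPS21, a small subunit protein (ENSSSCG00000040782, chr4:98780334-98794821), had 19.3, 12.7, 20.8, 22.3 and 22.0 CPM at 0h in the same pigs, 9.93, 6.86, 15.1, 17.3 and 13.9 CPM at 6h and 11.8, 4.41, 15.8, 11.3 and 21.6 CPM at 12h. All 5 pigs were lower at both times, although pig 77 had almost returned at 12h, and the 12h log2 fold change was -0.73 (SE 0.20, adjusted p = 0.013). MRPL34, one of the smallest large subunit proteins (ENSSSCG00000039295, chr2:60377905-60378874), had 14.9, 13.2, 15.1, 13.1 and 14.2 CPM at 0h and 14.3, 6.07, 8.79, 8.86 and 12.1 CPM at 12h, with a log2 fold change of -0.56 (SE 0.21, adjusted p = 0.047). Its call was lost in 10 of 15 alternative analyses. MRPL28, MRPS28, MRPL50 and MRPS9 also fell, by log2 fold changes of -0.73, -0.63, -0.52 and -0.47. In the GS pigs at 12h, 12 of 18 cytosolic genes with a TOP-like start rose (median 0.35) and 19 of 37 without one (median 0.35). In the mitochondrial class the medians were 0.12 over 12 genes with such a start and -0.03 over 52 without. These differences were not tested.

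Lymphocyte markers moved in the same GS samples: 8 of 11 tested fell and 0 rose at 12h, with a median of -0.68, and their summed level ranged from 312 to 591 CPM at 0h and from 150 to 442 CPM at 12h, with 1 of 12 markers under 1 CPM. Ciliated cell markers fell for 5 of 6, from 201 to 283 CPM summed at 0h to 109 to 227 CPM at 12h. The part of either list in the change of the ribosomal protein genes was not tested. Alveolar type 2 cell markers, which mark a cell type of the lung epithelium, summed to 7000 to 9723 CPM in the GS libraries at 0h, with none of the 7 measured under 1 CPM.

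In the PD pigs the cytosolic class was lower at 6h than at 0h in 3 of 4 pigs and single genes did not pass. At 6h 0 members passed by edgeR, against 0.142% of 15545 genes, and 0 passed by DESeq2, against 2.81%. By edgeR 1463 genes, of which 0 cytosolic and 9 mitochondrial members, had an unadjusted p under 0.05. All 54 cytosolic fits were negative, with a median of -0.48, and 52 of 64 mitochondrial fits were negative, with a median of -0.41; all 9 of those mitochondrial members were lower. Per pig, the cytosolic median change was 0.75 in pig 2 and -0.58, -0.89 and -0.64 in pigs 3, 4 and 5, and the mitochondrial median was -0.00, -0.26, -0.37 and -0.84. Without pig 2 the fitted medians were -0.78 and -0.60, with 0 members passing. Short transcripts outside the 2 classes were lower too. With all pigs, the median of genes that were not members was -0.32 under 1000 bases and -0.16 from 1000 to 2000. It was -0.07 from 2000 to 4000 and 0.16 above 4000. In the same comparison with all pigs, lymphocyte, neutrophil and red cell markers had medians of -0.62, -0.72 and -1.35. All 6 smooth muscle markers had positive fits, with a median of 0.34. None of these markers passed, and their part in the change was not tested.

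At 12h the cytosolic class of the PD pigs had a median log2 fold change of 0.19 with 43 of 54 fits positive and 0 genes passing (1 at an unadjusted p under 0.05, where 24.5% of all genes and 10 of 64 mitochondrial members had one, and 1 passing by DESeq2, which passed 17.8% of all genes), against 3.22% of all genes rising and 2.76% falling. Pig 2 alone gave a cytosolic median of 1.89; pigs 3, 4 and 5 gave -0.57, -0.52 and 0.21. The sign of the class median changed without the 12h library of pig 2 (-0.21, 19 of 54 positive), without pig 2 altogether (-0.35, 12 of 54 positive) and when libraries were scaled by their totals alone (-0.05). Only 2 of 55 cytosolic genes were higher at 12h in all 4 PD pigs. Lymphocyte markers moved in the PD samples too: 2 of 11 tested fell and 0 rose at 12h, with a median of -1.01, and their summed level ranged from 251 to 404 CPM at 0h and from 146 to 216 CPM at 12h. None of 6 neutrophil or 6 ciliated cell markers passed, and all had negative fits, with medians of -0.61 in both lists. Their part in the PD changes was not tested.

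RPLP0 also had its highest PD level at 12h in pig 2, with 1432, 1835 and 6662 CPM at 0h, 6h and 12h in PD pig 2, 1737, 1603 and 1934 CPM in pig 3, 3006, 1869 and 2462 CPM in pig 4, and 1967, 1385 and 2592 CPM in pig 5. The 12h level of pig 2 lay above every other PD library, and the RPLP0 log2 fold change of 0.62 (SE 0.44, adjusted p = 0.42) did not pass. RPL7L1 was higher at 12h in all 4 PD pigs, with 115, 143, 155 and 131 CPM at 0h in PD pigs 2, 3, 4 and 5 and 339, 214, 322 and 298 CPM at 12h. Its PD levels at 0h and 12h did not overlap, yet the RPL7L1 log2 fold change of 1.09 (SE 0.35, adjusted p = 0.083) stayed short of the threshold. RPL7L1 was named in part for its 12h change, so the gap between its levels is a description only.

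Among the mitochondrial genes of the PD pigs MRPL15 rose and MRPL34 fell at 12h, with a class median of 0.26 and 40 of 64 fits positive. Without the 12h library of pig 2 the mitochondrial median was -0.06, with 30 of 65 positive. MRPL15 stood at 29.5, 27.9, 50.8 and 35.6 CPM at 0h in PD pigs 2, 3, 4 and 5, at 38.4, 37.9, 64.5 and 26.2 CPM at 6h and at 84.8, 74.98, 90.4 and 70.6 CPM at 12h. The lowest 12h library exceeded the highest 0h library, and the MRPL15 log2 fold change was 1.19 (SE 0.31, adjusted p = 0.049). MRPL34 fell from 33.7, 36.9, 28.5 and 38.2 CPM to 17.1, 6.71, 9.03 and 10.3 CPM, also without overlap, by a log2 fold change of -1.76 (SE 0.38, adjusted p = 0.028). Both calls were lost when pig 3, 4 or 5 was left out, but then 0.0%, 2.55% and 0.0% of all genes passed, and 14 of 65 mitochondrial genes passed without pig 2, 5 rising and 9 falling, in a fit where 25.5% of all genes passed.

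MRPL17 reached 346, 143, 199 and 272 CPM at 12h in PD pigs 2, 3, 4 and 5, from 82.4, 78.2, 124 and 115 CPM, and its log2 fold change of 1.21 (SE 0.36, adjusted p = 0.069) did not pass. MRPS27 gave 1.11 (adjusted p = 0.089), MRPL40 gave 1.31 (adjusted p = 0.075) and MRPS21 gave -1.45 (adjusted p = 0.11). MRPL12, whose protein forms the mitochondrial stalk and binds the mitochondrial RNA polymerase (ENSSSCG00000033148, chr12:1067875-1203786), was the most scattered, with 52.7, 40.1, 214 and 129 CPM at 0h and 323, 16.7, 13.99 and 44.97 CPM at 12h in PD pigs 2, 3, 4 and 5. Pig 2 rose and the other 3 fell, and the MRPL12 log2 fold change was -1.05 (SE 1.06, adjusted p = 0.58). Between 12h and 6h no gene passed in the PD pigs (0.0% of 15545; 1562 at an unadjusted p under 0.05, 2 of them cytosolic and 14 mitochondrial members, all higher at 12h). By DESeq2 0 cytosolic and 1 mitochondrial member passed, against 1.44% of all genes. The medians were 0.66 in both classes, with 54 of 54 cytosolic and 57 of 64 mitochondrial fits positive. Without the 12h library of pig 2 the medians were 0.24 (cytosolic) and 0.35 (mitochondrial). With all libraries, genes that were not members had medians of 0.18 under 1000 bases of transcript and 0.14 from 1000 to 2000. Their medians were 0.00 from 2000 to 4000 and -0.16 above 4000.

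**Figure D3:**
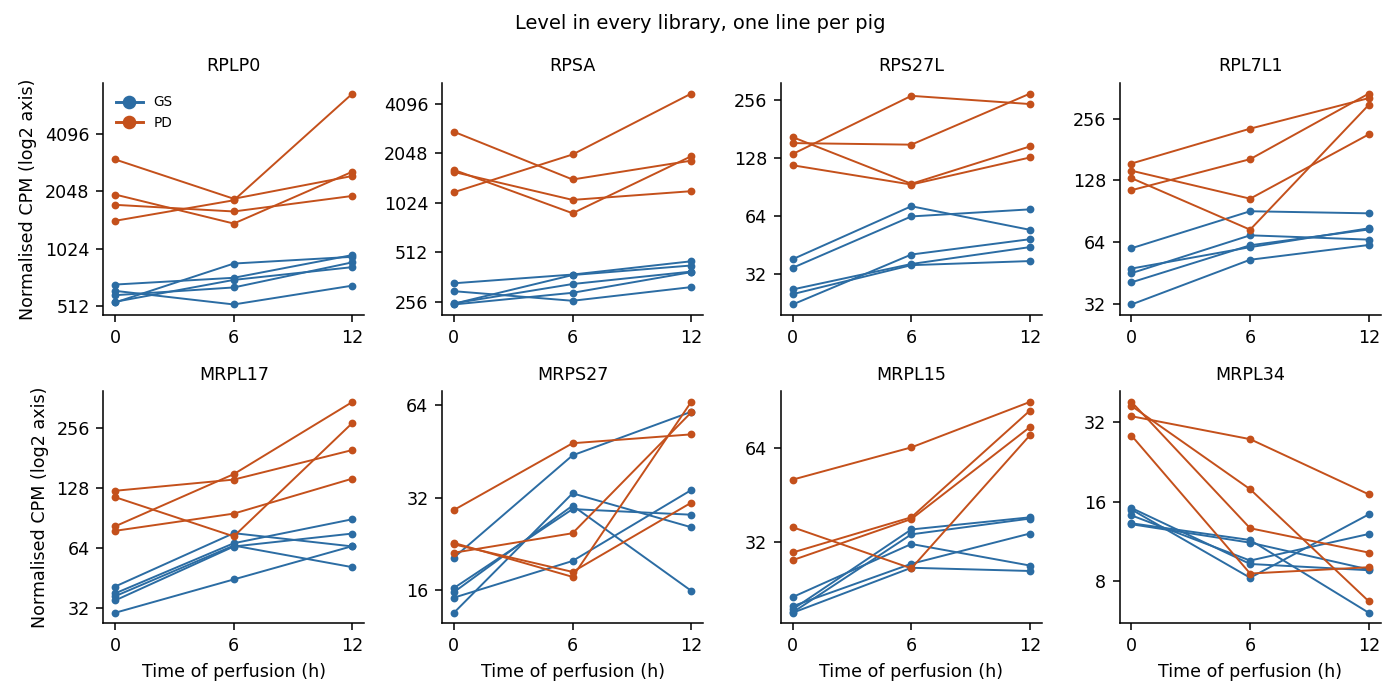
Normalised level (CPM, vertical log2 axes) of RPLP0, RPSA, RPS27L, RPL7L1, MRPL17, MRPS27, MRPL15 and MRPL34 against time of perfusion (hours), with 1 line per pig and GS and PD in separate colours. MRPL15 is higher and MRPL34 lower at 12h than at 0h in every pig, and the RPLP0 line of PD pig 2 climbs to 6662 CPM.

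The 2 groups' changes share no pigs or control samples, so they can be set side by side. Across the 64 mitochondrial genes fitted in both, the 12h log2 fold changes had Pearson's r = 0.78 and Spearman's rho = 0.79, with 51 of the same sign (79.7%). Across the 54 cytosolic genes they had r = 0.48 and rho = 0.46, with 43 of the same sign (79.6%). Over all 15459 genes r was 0.79 and 80.5% had the same sign. Without the 12h library of PD pig 2, r was 0.63 (mitochondrial), 0.60 (cytosolic) and 0.69 (all genes), and 48 of 65, 19 of 54 and 74.8% had the same sign. Genes are not independent replicates, and these are descriptions of 2 fits. At 6h 1 of 54 cytosolic and 37 of 64 mitochondrial genes had the same sign in both groups, against 68.6% of all genes.

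**Figure D4:**
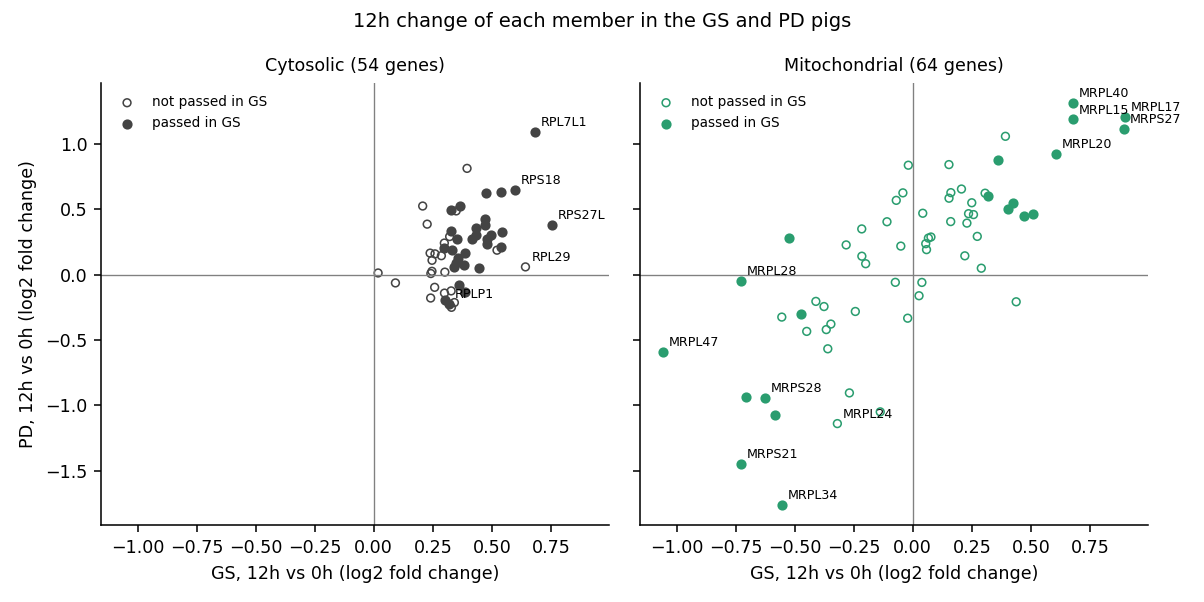
Log2 fold change between 12h and 0h in the PD pigs (vertical axis) against that in the GS pigs (horizontal axis) for 54 cytosolic and 64 mitochondrial ribosomal protein genes, with filled points for genes that passed in GS. The mitochondrial points run along a rising line through both signs (r = 0.78), while the cytosolic points are all right of 0.

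Whether the change over perfusion differed between PD and GS was tested directly as the difference of the changes. At 6h no gene passed (0.0% of 17884; 1046 at an unadjusted p under 0.05, by edgeR), and 3 cytosolic and 9 mitochondrial members, all negative, had an unadjusted p under 0.05. All 55 cytosolic estimates were negative, with a median of -0.68, and 54 of 67 mitochondrial estimates were, with a median of -0.40. Among genes that were not members the 6h median was -0.33 for transcripts under 1000 bases and -0.17 from 1000 to 2000. It was 0.01 from 2000 to 4000 and 0.25 above 4000. In the same ranges the cytosolic medians were -0.70, -0.55 and -0.53, the last over 2 genes. The mitochondrial medians were -0.67, -0.25, -0.14 and -0.27. Without PD pig 2, 12 cytosolic and 2 mitochondrial genes passed, all negative, with 1.37% of all genes passing. At 12h no gene passed either (0.0% of 17884; 1069 unadjusted, among them 0 cytosolic and 1 mitochondrial member), with medians of -0.22 and 0.17. The sign of this mitochondrial median depended on which pig was left out. DESeq2 passed 0 members at either time, against 0.039% of all genes at 6h and 0.084% at 12h. No difference between GS and PD in the change of a member could be shown with all 9 pigs.

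The groups differed already at 0h, before the perfusion methods could differ. According to the paper, the PD lungs had also served in an earlier study by the authors, whose GS lungs were others. Whether the 2 groups here were perfused at different times is not given in the sources used. The part of such a difference between groups was not tested. Of 55 cytosolic genes 53 were higher in PD and 0 lower, against 21.3% of all 16477 genes higher and 19.3% lower, and the median log2 difference was 2.42. In the mitochondrial class 50 of 66 genes were higher and 1, MRPL49, lower, with a median of 1.29. Every PD library was above every GS library for 53 of 55 cytosolic and 44 of 67 mitochondrial genes at 0h, against 15.3% of all genes. At 6h this held for 48 and 25 members, against 10.9%, and at 12h for 49 and 40, against 9.7%.

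RPL38 had the largest difference of the members. Its level at 0h was 54.7, 143, 67.9, 62.9 and 61.2 CPM in GS pigs 9, 17, 44, 55 and 77 and 1166, 1458, 3721 and 1293 CPM in PD pigs 2, 3, 4 and 5. The RPL38 log2 difference was 4.67 (SE 0.45, adjusted p = 2.1e-05). RPL35A, RPS21, RPS27A, which is made fused to ubiquitin, and RPL30 followed with log2 differences of 4.23, 4.00, 3.96 and 3.55. In the mitochondrial class MRPL13, MRPL33 and MRPL57 led with 3.28, 3.23 and 3.15.

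The cytosolic genes that did not pass were RPL3L, at 0.44, and RPL7A, at 0.21, the latter named after its value was seen. MRPL49 (ENSSSCG00000013001, chr2:7058088-7071812) went the other way, with 18.2, 10.2, 21.8, 26.1 and 24.98 CPM in GS pigs 9, 17, 44, 55 and 77 and 8.13, 10.2, 5.85 and 6.11 CPM in PD pigs 2, 3, 4 and 5. The MRPL49 log2 difference was -1.38 (SE 0.30, adjusted p = 0.0034). GS pig 17 was as low as PD pig 3, and the other libraries were apart.

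The difference at 0h varied with transcript length. Among genes that were not members the median log2 difference was 1.05 for transcripts under 1000 bases, 0.51 from 1000 to 2000, 0.03 from 2000 to 4000 and -0.39 above 4000. In the same ranges the cytosolic medians were 2.71, 1.82 and 1.37, the last over 2 genes, and the mitochondrial medians were 1.55, 1.20, 0.61 and 0.87. With a smooth trend on length and GC content removed, an analysis added after the data were seen, the cytosolic median was 1.38 with 45 genes higher and the mitochondrial median 0.64 with 37 higher and 5 lower, in a fit where 38.7% of all genes passed in either direction. The tissue was stored and extracted in 2 ways that the sources used here do not tie to single libraries, and their part in the difference was not tested.

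Some markers of other cell types differed at 0h as well. Their counts are to be read against the 21.3% of all genes that were higher in PD and the 19.3% that were lower. The red cell markers summed to 4.73 to 13.4 CPM in GS and 62.2 to 241 CPM in PD libraries, with 4 and 2 of 7 markers under 1 CPM; of the 3 red cell markers tested 1 was higher in PD and 0 lower. Of 8 endothelial markers 1 was higher and 4 lower, and of 6 neutrophil markers 3 were higher and 1 lower. The lymphocyte, macrophage, alveolar type 1, fibroblast, smooth muscle and ciliated cell lists each had 0 to 2 markers higher and 1 to 3 lower. Alveolar type 2 markers summed to 26687 to 78248 CPM in PD, above the GS range given before, although of the 7 markers 2 were higher in PD and 1 lower. Their part in the ribosomal protein difference was not tested.

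**Figure D5:**
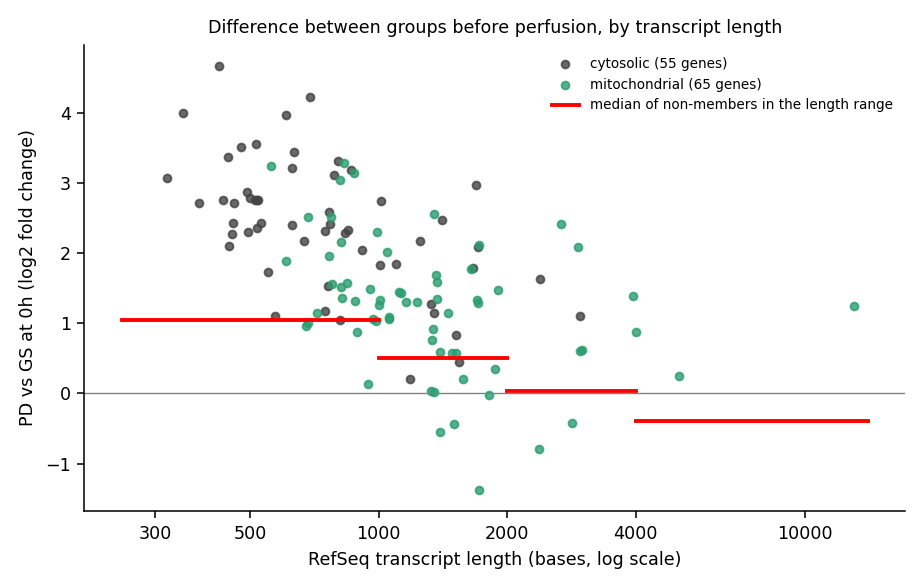
Log2 difference between PD and GS at 0h (vertical axis) against RefSeq transcript length (bases, log axis) for each cytosolic and mitochondrial ribosomal protein gene, with red bars at the median of non-members in each length range. The red bars step down from 1.05 to -0.39 as length grows, and most members of both classes lie above the bar of their range.

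Other genes of the translation machinery were taken as lists, whose counts at 12h are to be read against the 17.6% of all genes that rose and 20.8% that fell in GS and the 3.22% and 2.76% in PD. Of the cytosolic translation factors 22 of 36 rose and 1 fell in the GS pigs at 12h, with a median of 0.52, and 5 rose and 0 fell in the PD pigs, with a median of 1.02. EIF4A1, the helicase of initiation, rose by 1.17 in GS (adjusted p = 6.5e-05) and 1.91 in PD (adjusted p = 0.018), and ETF1, the release factor, by 1.27 and 1.74. EIF6, which keeps the large subunit apart from the small one, rose by 0.98 and 1.6. EIF2B1 fell in GS by a log2 fold change of -0.75. Other messengers with a TOP tract rose for 7 of 14 in GS and 1 of 14 in PD: HNRNPA1 rose by 1.08 and 1.23, NPM1 and EEF2 rose in GS by 0.73 and 0.63, and EEF1A1 did not pass, at 0.18.

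Ribosomal proteins whose names fall outside the rule rose for 0 of 8 in PD and 3 of 8 in GS. Among these 3 were RACK1, a scaffold on the small subunit, at 0.45, and DAP3, of the mitochondrial small subunit, at 0.73. DAP3 had a log2 fold change of -0.38 in PD that did not pass. Of 12 mitochondrial translation factors 0 rose and 0 fell in PD, with a median of 0.19. In GS 2 rose and 4 fell, with a median of -0.27. TUFM, the elongation factor, rose by 0.45 and MTRF1L, a release factor, by 0.67; MTFMT, which formylates the initiator, and MTIF3, an initiation factor, fell by log2 fold changes of -0.85 and -0.79. Of 18 mitochondrial ribosome assembly genes 4 rose and 7 fell in GS and 2 rose and 0 fell in PD. DDX28 rose by 0.85 in GS and 2.11 in PD, C1QBP by 0.81 and 1.45, and MTG2 fell in GS by -1.08.

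Regulators of ribosomal protein genes rose for 9 and fell for 2 of 23 in GS and rose for 3 of 23 in PD, with medians of 0.23 and 0.59. MYC, which drives ribosome production, rose by 1.66 in GS (SE 0.25, adjusted p = 0.00044) and 2.62 in PD (SE 0.45, adjusted p = 0.018). PPRC1, a coactivator of NRF1, rose by 2.05 and 2.27, and TFAM, which packs mitochondrial DNA, by 0.97 and 1.56. LARP1, which binds TOP messengers, rose in GS by 0.60, and MTOR, the kinase upstream of it, fell by a log2 fold change of -0.48. None of the calls in the PD pigs held without pig 3 or pig 5, since no gene of the table then passed. These lists were chosen with earlier results of the data known and are not independent evidence of a direction.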

How the data were processed

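The authors deposited 1 table of raw read counts per gene for 27 libraries. RNA was made into stranded mRNA libraries; per the submitters' processing notes, reads were trimmed with cutadapt 1.15, aligned with TopHat2 2.0.14 to Sscrofa11.1 and counted with featureCounts of Subread 1.6.0, and DESeq2 1.18.1 was used. Strand and multi-mapping options of the counting are not given in the sources used here. Reads from PCR copies are not separate molecules.

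Here, counts were TMM-scaled, filtered with filterByExpr and tested with edgeR 4.0.16 (limma 3.58.1, R 4.3.3) by the robust quasi-likelihood test. GS and PD time changes were fitted separately with the pig as a block; the difference between the changes used all libraries, and the 0h comparison used the 9 libraries of 0h without a block. A gene passed at a Benjamini-Hochberg adjusted p under 0.05 over all genes tested. The pairing comes from the labels, which give the same pig at each time; residuals of the same pig correlated at 0.35 to 0.73 in GS (median 0.50) and at -0.21 to 0.42 in PD (median 0.10), against medians of -0.21 and -0.03 between pigs. None of the 48 pairs of libraries of the same group and time was identical. Symbols came from the table, gene name lists or NCBI annotation; 12043 genes had none. Depth ran from 14650700 to 67522703 counts. The tests were also run on simulated data, whose outcome is not reported here and is not used for any result.

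The genes, lists and tests were chosen with earlier results of these data known. Named members were, per class, those with the 3 largest positive and 3 largest negative 12h changes in each group and in their difference, where the class had any of that sign, those passing with at least a 2-fold change (at most 6 each way), paralogs, RPSA and the stalk genes, the 3 with the highest CPM, and the 3 with the largest 0h differences of each sign. RPL7 and RPS20 are shown for their sequence only. For genes named for their 12h change, levels that do not overlap between times follow in part from that choice. Such gaps are not further evidence, and their share over all genes was not counted. Alternatives were other scalings, no filter, no block, thinned libraries, DESeq2 1.42.0, only the 2 time points, all libraries in 1 fit and each pig left out; added later were a length and GC trend, PD pig 2 at 12h left out, and ribosomal protein genes without a name in the count table.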

Additional observations from a re-analysis of the deposited data

Results flagged for a closer look

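In groups of 4 or 5 pigs, the highest or lowest library was compared with its neighbours, and a gap that took up most of the range was singled out; chance does this in about 1 of 20 groups. Of 116 groups, 12 had such a library. PD pig 2 accounted for 8 of these values. Its cytosolic share was 8.97% at 6h. Its median mitochondrial change between 12h and 0h was 0.82 on the log2 scale. At 12h it had 6662 CPM of RPLP0, 7301 CPM of RPL38, 195.5 CPM of MRPL40, 84.97 CPM of MRPS21 and 323.4 CPM of MRPL12, and at 6h it had 3254 CPM of RPLP1. The other 4 were 3721 CPM of RPL38 in PD pig 4 at 0h, 143.2 CPM of RPL38 and 380.4 CPM of RPS18 in GS pig 17 at 0h and 6h, and 13.96 CPM of MRPL12 in GS pig 9 at 12h. All are high values except the last.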

How the results depend on the processing

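Of 81 calls of named genes 39 were kept under every alternative and 0 reversed, and the causes below were not tested. With pigs left out in turn, the number of passing genes ran from 2 to 8 (cytosolic, 3 with all) and 5 to 12 (mitochondrial, 16) for GS at 6h, from 13 to 51 (31) and 8 to 27 (21) for GS at 12h, from 0 to 14 for the mitochondrial genes of PD at 12h (2), where 14.9% to 25.6%, 25.4% to 40.3% and 0.0% to 25.5% of all genes passed, and from 0 to 12 (cytosolic) and 0 to 2 (mitochondrial) for the difference of changes at 6h and 0 to 1 (mitochondrial) at 12h, where 0.0% to 1.37% and 0.0% to 0.824% of all genes passed; its mitochondrial median ran from -0.12 to 0.27 at 12h, and the mitochondrial median difference at 0h from 1.11 to 1.34. Without the replicate block, GS counts were 0 and 3 at 6h and 8 and 6 at 12h (cytosolic, mitochondrial), and PD at 12h had 5 mitochondrial genes, with 9.31%, 16.6% and 9.57% of all genes passing. In 1 fit of all 27 libraries the GS counts were 1 and 3 at 6h and 2 and 3 at 12h, and PD had 3 mitochondrial genes at 6h, 1 cytosolic and 12 mitochondrial at 12h, and 2 and 8 between 12h and 6h, with 8.98% and 16.1% of all genes passing in the GS and 2.86%, 22.9% and 2.75% in the PD comparisons. DESeq2 gave 7 cytosolic genes in GS at 6h, 48 at 12h, 1 cytosolic and 8 mitochondrial in PD at 12h and 1 mitochondrial between 12h and 6h, with 34.1%, 43.2%, 17.8% and 1.44% of all genes passing. With no filter, GS had 9 mitochondrial genes at 6h (16.8% of all genes) and PD 1 at 12h (3.41%); with only the 2 time points PD had 0 (0.027%). Library totals alone gave 5 cytosolic genes in GS at 12h (45.2% of all genes), mitochondrial medians of -0.14 and -0.18 in GS at 6h and 12h (at 12h 5 up and 23 down), and 0h medians of 1.97 and 0.90. Removing a length and GC trend, with the replicate block where there was one, gave 1 cytosolic and 13 mitochondrial genes in PD at 12h (19.8% of all genes) and 0h medians of 1.38 and 0.64. Leaving out the 12h library of PD pig 2, with the replicate block, gave 1 and 13 genes at 12h (27.4% of all genes) and a mitochondrial median of 0.35 between 12h and 6h. The shallower PD libraries left 15545 genes to test after the filter on low counts, against 18594 in GS.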
